A study of Mus musculus with 8 samples.

Results

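Ephrins, Eph receptors, Slits, Robos and netrins are cell guidance molecules, here followed in the atrioventricular canal of the mouse heart, the segment in which the endocardial cushions form. The set holds the ephrin, Eph receptor and Unc5 receptor genes on the array, Slit1 to Slit3, Robo1 to Robo3, the netrins, and Dcc and Neo1 as further netrin receptors, chosen by symbol. Robo4 was not in it and is described with the partner genes. It came to 39 of 18194 named genes, and each gene is represented by its brightest probe set, the one with the highest mean over all arrays. The families gave 5 ephrin-A and 3 ephrin-B ligands, 9 EphA and 4 EphB receptors, 3 Slits, 3 Robo receptors, 6 netrins and 6 netrin receptors. Ephb2 is not analysed here.

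Eph receptors are receptor tyrosine kinases whose ligands, the ephrins, sit on the surface of neighbouring cells. Ephrin-A ligands hang on a lipid anchor, ephrin-B ligands span the membrane, and signals pass into both cells at the contact. Slits are secreted proteins that mostly repel cells bearing Robo receptors, and netrins such as Ntn1 are laminin-related secreted proteins read by Dcc, Neo1 and the Unc5 receptors. Ntng1 and Ntng2 are counted here with the netrins, but this description does not cover them. All of these families were first studied in growing axons. In the heart, Epha3 is known for its part in the endocardial cushions and the atrial septum, Efnb2 and Ephb4 for the separation of arteries and veins and for trabeculation, and Slits and Robos for the septa, the caval veins and the pericardium.

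The study had 8 samples, each a pool of 10 microdissected canals from mice of a mixed C57BL6/129 background. The 4 control pools were Gata4flox/flox. The 4 mutant pools were Gata4flox/flox with the T2Cre transgene, in which the Tie2 promoter drives Cre in endothelium and the cushion mesenchyme derived from it. The floxed alleles were therefore common to both groups, Cre was labelled only in the mutants, and canal muscle and epicardium were not targeted. The sources used here give no embryonic age. The labels do not say whether the pools came from separate litters, so p values measure the spread between these pools. In whole canals, fewer cells of a type and less RNA per cell cannot be told apart.

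RNA of each pool, 50 ng, was amplified and hybridised to 1 array. Values below are quantile-normalized log2(intensity + 16) unless stated, changes are mutant minus control from limma, and a probe set was above background when brighter than the 90th percentile of the 27 bacterial controls on the same array. Controls 2 and 3 stood apart. Their bacterial control probe sets had median intensities of 158 and 135, against 4.0 to 39.3 on the other 6 arrays, and they received weights of 0.30 and 0.35 in the fit, against 0.87 to 2.80. The design text says that 2 noisy control samples were left out and does not name them, but 4 control arrays are in the table. All 4 were kept here. For each guidance or partner gene with a printed change, that of its brightest probe set is given also without controls 2 and 3 where it was tested. These values come from a limma fit with equal weights. The log2 values of Gata4 at its brighter probe set were 11.15, 11.07, 11.42 and 11.38 in controls 1 to 4 and 11.10, 11.28, 11.18 and 10.93 in mutants 1 to 4 (log2 change -0.15, SE 0.11, adjusted p = 0.585, and -0.15 without controls 2 and 3). The dimmer probe set read 6.90, 5.05, 5.20 and 8.13 in the controls and 7.68, 7.78, 7.86 and 7.94 in the mutants, and was above background on 2 control and 4 mutant arrays. Its change was positive, at 0.98 (SE 0.45, adjusted p = 0.388). Leaving out controls 2 and 3 gave 0.32. Where either probe set lies relative to the deleted exon was not known, so these values do not check the deletion.

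The tissue carried the markers its label implies. All 12 listed genes of cushion mesenchyme and 11 of 12 of cardiomyocytes were above background on all 8 arrays, as were 6 of 12 endothelial and 3 of 6 canal muscle genes. Of 12 measured markers of neurons and neural crest, 0 were above background on all 8 arrays. Tubb3 and Elavl4 were above it on 3 control and 4 mutant arrays, Nefl on 4 and 3, and only Foxd3 on 0. Of 8 measured erythroid genes, 6 were above background on all 8 arrays. Some of the cell type lists moved with the groups. The summed linear level of the mesenchyme list ran from 43130 to 50010 in the mutants and from 55140 to 57690 in the controls, that of the epicardial list from 7935 to 11550 and from 5507 to 6870, and that of the cardiomyocyte list from 128400 to 134700 and from 120500 to 126900. None of these 3 ranges overlapped between groups. The endothelial sum was 8223 to 8655 in the mutants and 9152 to 10520 in the controls, but 8 of its 11 tested genes had positive changes. The sum holds the bright gene Tek, with means of 12.53 in the controls and 11.83 in the mutants. Tek changed by -0.72 (adjusted p = 0.000172 by limma) and was the 1 gene of this list past the threshold. The sums of neural markers overlapped, with 1375 to 1560 in the mutants and 1328 to 1716 in the controls. So did those of canal muscle (11900 to 13760 in the mutants, 12400 to 13620 in the controls) and erythroid cells (37340 to 44970 and 36840 to 48260). Sums of other blood cells (731 to 1059 and 603.7 to 911.7) and foregut endoderm (265.9 to 586.7 and 350.3 to 666.1) overlapped as well. The part of the marker shifts in the values below was not tested.

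The canal expressed a subset of the guidance genes. Of the 39, 16 were above background on all 8 arrays: the ligands Efna1, Efna2, Efna5, Efnb1, Efnb2 and Efnb3, the receptors Epha3, Epha4 and Epha7, Slit2 with Robo1 and Robo2, and Ntn1 with Neo1, Unc5b and Unc5c. Another 8 were above background on 4 to 7 arrays, 14 on 1 to 3 arrays, and Ntng2 on 0. Detection differed between arrays, with 18 to 23 members above background on a control array and 22 to 31 on a mutant array. The counts were 20 and 18 on controls 2 and 3. The share of all probe sets above background differed too, at 44.4% to 61% on control arrays and 64.1% to 72.6% on mutant arrays. The background limit was an intensity of 51.1 to 316 on control arrays and 21.4 to 65.4 on mutant arrays. Counts of arrays above background in each group carry this difference.

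**Figure D1:**
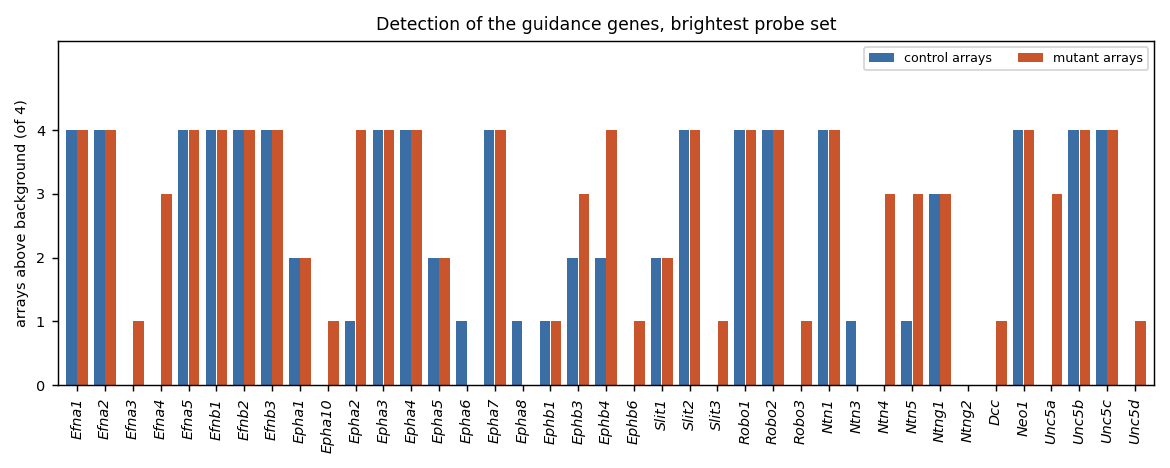
Number of arrays, of 4 control (blue) and 4 mutant (orange), on which the brightest probe set of each of the 39 guidance genes was above background, ordered by family. For 16 genes both bars reach 4, while Ntng2 has no bar.

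Of the 39 genes, 21 were bright enough to be tested among 27022 probe sets, and 0 passed an adjusted p of 0.05 in either direction. The background was as low, with 0.0663% of 12069 genes called on their brightest probe set and 0.0444% of all tested probe sets. At an unadjusted p under 0.05 the guidance genes gave 2 higher (Efna1 and Efnb2) and 1 lower (Slit2), where 7.31% of all genes were higher and 5.61% lower. The control and mutant values of 2 genes did not overlap, Efna1 and Efnb2, both higher, and 0 were lower without overlap, against 4.97% and 3.19% of all genes. Changes were positive for 9 and negative for 12 genes, with a median of -0.17, against a median of 0.02 and 53.2% positive changes over all genes. Without controls 2 and 3, 10 of 22 were positive. On the authors' own scaling, against the median over all tested probe sets, it was 7 of 21, and with arrays centred on their medians 12 of 21.

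**Figure D2:**
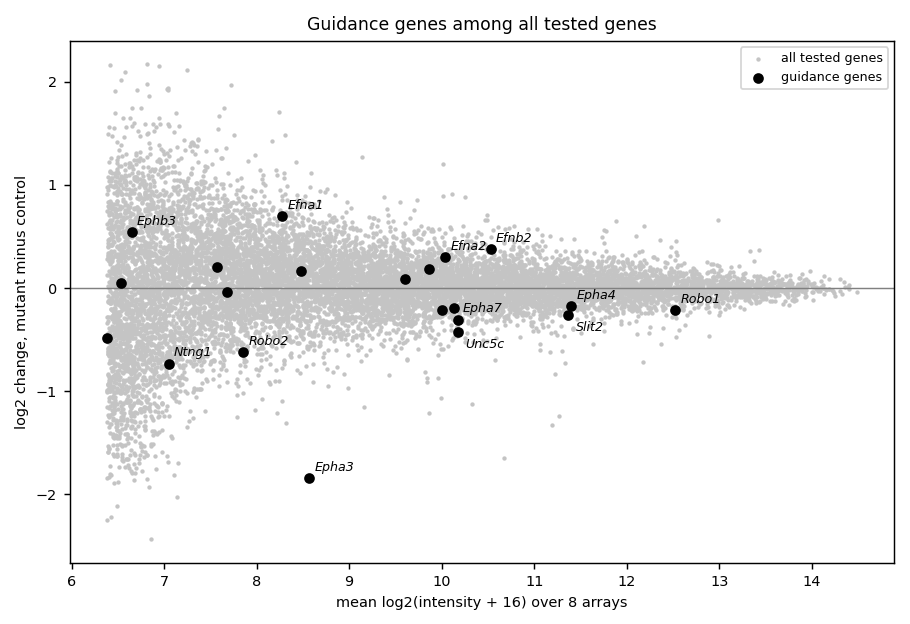
Log2 change (mutant minus control) against the mean log2 level over 8 arrays for the brightest probe set of all 12069 tested genes (grey) and of the 21 tested guidance genes (black, 12 of them named). Most guidance genes lie within the grey cloud, and Epha3, at -1.85, lies below it for its level.

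The EphA receptor Epha3 had the largest change of the set, at both of its bright probe sets. Its log2 values were 9.83, 10.13, 8.92 and 9.24 in controls 1 to 4 and 6.43, 8.24, 9.02 and 6.76 in mutants 1 to 4. Mutants 1 and 4 lay far below every control, while mutant 3 lay above control 3, so the groups overlapped at that one point. The change was -1.85 (SE 0.80, 95% interval -3.72 to 0.03, adjusted p = 0.400 by limma), with means of 9.53 ± 0.55 and 7.61 ± 1.23 (SD, n = 4 each). Without mutant 3, which had the largest weight in the fit (2.80), the change was -2.52 (adjusted p = 0.00506 by limma). With any other single array left out it ran from -2.08 to -1.41, with adjusted p values from 0.318 to 0.565 by limma. Without controls 2 and 3 it was -2.13 (adjusted p = 0.669). The second probe set of Epha3 read 8.70, 9.76, 9.24 and 7.75 in the controls and 6.82, 7.32, 7.97 and 6.34 in the mutants. Here too mutant 3 was the highest mutant and exceeded only control 4, and the change was -1.44 (SE 0.46, adjusted p = 0.275, and -1.22 without controls 2 and 3). The mesenchyme sums given above moved in the same direction as both probe sets of Epha3.

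The 250 bases before the RefSeq start of Epha3 are shown because Gata4 is a GATA factor and this window, chr16:63864176-63864425 (GRCm38.p6, minus strand), holds a GATA motif, in capitals, beginning 8 bases before the start.
Epha3: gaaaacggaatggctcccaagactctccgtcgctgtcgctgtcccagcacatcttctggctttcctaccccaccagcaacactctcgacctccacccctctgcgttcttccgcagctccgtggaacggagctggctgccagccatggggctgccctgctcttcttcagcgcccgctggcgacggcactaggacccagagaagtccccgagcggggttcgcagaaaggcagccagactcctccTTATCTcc
The motif searched was GATA with A or T before it and A or G after it, on either strand, and the capitals above show it as read on the other strand. Windows were found for 34 of the 39 genes, 39 windows in all, and 4 windows held the motif, those of Epha3, Robo2, Unc5b and Efna4. That is 10.3% of them, against 26.5% of all 32851 windows in the table. Windows of the guidance genes were rich in G and C, with a median of 64.8% against 52.4% over all windows. No window was found for Dcc, Efnb3, Ntn1, Slit1 and Unc5d. A match describes letters in a sequence and does not show a bound site.

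Epha7 and Epha4, which like Epha3 bind ephrin-A ligands, were measured at several probe sets. Epha7 had log2 levels of 10.20, 10.66, 10.50 and 10.23 in the controls and 9.95, 9.83, 10.22 and 9.79 in the mutants. All mutants but mutant 3 were below every control. The change was -0.31 (SE 0.15, adjusted p = 0.409, and -0.29 without controls 2 and 3), and the next probe sets changed by -0.55 (SE 0.20, adjusted p = 0.307) and -0.54 (SE 0.30). Epha4, which can also bind ephrin-B ligands, read 11.69, 11.34, 11.57 and 11.42 in the controls and 11.42, 10.84, 11.56 and 11.37 in the mutants, and only mutant 2 stood below the control range. Its change was -0.17 (SE 0.13, adjusted p = 0.608, and -0.26 without controls 2 and 3). The 3 dimmer probe sets had both signs, with 0.21, -0.77 and 0.04, but were at -0.13, -0.79 and -0.55 without controls 2 and 3. Epha5 changed by -0.49 (SE 0.62) and was above background on 2 arrays of each group. All 4 tested EphA receptors thus had negative changes, but with median-centred arrays Epha4 lay 0.38 above the all-probe-set median. The other 5 EphA receptors were too dim to be tested. Of these, Epha2 went the other way, above background on 1 control and 4 mutant arrays. It read 5.02, 5.35, 4.88 and 7.23 in the controls and 6.88, 7.31, 6.71 and 7.29 in the mutants. Epha2 was singled out after its values were seen.

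**Figure D3:**
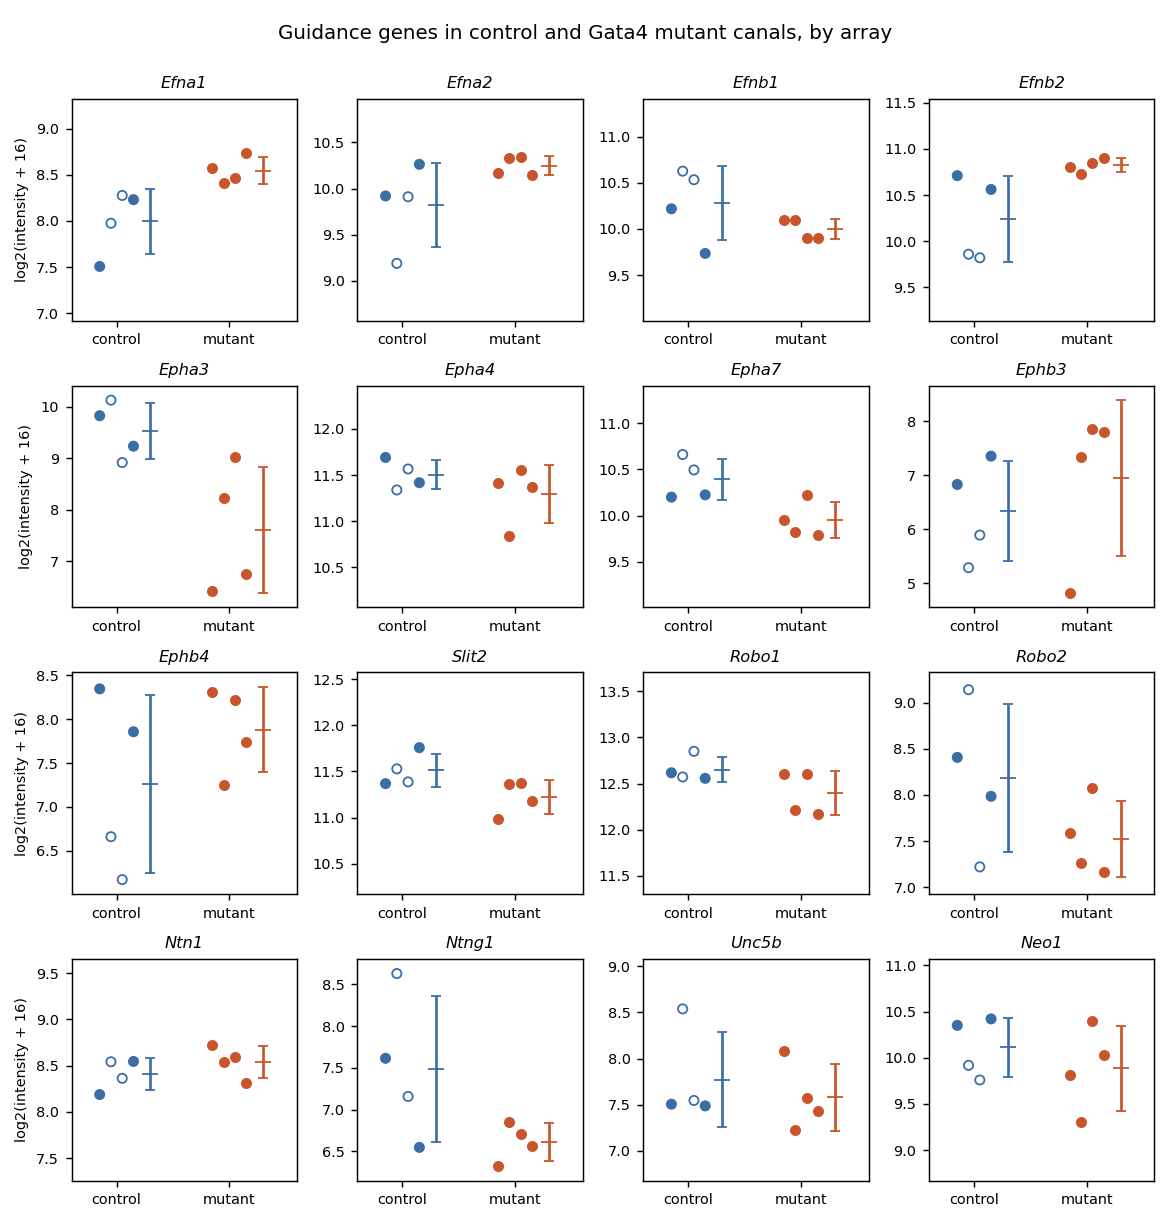
Log2(intensity + 16) of 16 guidance genes on each control (blue) and mutant (orange) array, with group mean and SD beside the points; open points are controls 2 and 3, whose background was raised. Mutants of Efna1 and Efnb2 lie above all controls, and Epha3 mutants spread from 6.43 to 9.02.

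Among the ephrin-A ligands, Efna1, which is made by endothelium and binds Epha3 among other EphA receptors, was higher in every mutant than in any control. It had log2 levels of 7.51, 7.97, 8.28 and 8.23 in the controls and 8.57, 8.41, 8.47 and 8.73 in the mutants. The gap between the highest control and the lowest mutant was small, and control 1 stood below the other controls. The change was 0.70 (SE 0.24, 95% interval 0.19 to 1.21, adjusted p = 0.290), a 1.62-fold difference, and 0.77 without controls 2 and 3. Group means were 7.997 ± 0.35 and 8.55 ± 0.14 (SD, n = 4 each); the fit weights control 1 more than controls 2 and 3, so its change exceeds the difference of these means. Without control 1, it was 0.39. On the authors' scaling the groups overlapped, and with median-centred arrays they overlapped and Efna1 lay 0.081 above the all-probe-set median (adjusted p = 0.840 by limma). The second probe set was above background on 1 control and 3 mutant arrays, with a fitted change of 1.26 (SE 0.59, adjusted p = 0.388 by limma). Leaving out controls 2 and 3 gave 0.66 for it.

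Efna2 followed with 9.92, 9.19, 9.91 and 10.26 in the controls and 10.17, 10.34, 10.34 and 10.15 in the mutants. Control 4 lay within the mutant range and control 2 well below it. The change was 0.30 (SE 0.15, adjusted p = 0.428) and 0.17 without controls 2 and 3, and the second probe set changed by -0.04 (SE 0.30). With median-centred arrays Efna2 lay 0.76 above the all-probe-set median (adjusted p = 0.0256 by limma). The change of Efna5 was 0.19 (SE 0.16, adjusted p = 0.645, and 0.31 without controls 2 and 3). Efna4 was above background on 0 control and 3 mutant arrays, so no size is given for it, and Efna3 was above background on 1 array in all.

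Efnb2, the transmembrane ephrin of arterial endothelium and of the endocardium, was the other gene without overlap. Its log2 values were 10.71, 9.86, 9.82 and 10.56 in the controls and 10.80, 10.73, 10.84 and 10.91 in the mutants. Controls 2 and 3 were the lowest arrays, and mutant 2 exceeded control 1 only narrowly. The change was 0.38 (SE 0.15, 95% interval 0.07 to 0.68, adjusted p = 0.334), with means of 10.24 ± 0.46 and 10.82 ± 0.08 (SD, n = 4 each). It depended on which controls were kept. Without controls 2 and 3 it was 0.19 (SE 0.12, adjusted p = 0.752), without control 1 it was 0.86 (adjusted p = 0.0154), and without control 4 it was 0.78 (adjusted p = 0.0242). With median-centred arrays the groups overlapped and Efnb2 lay 1.24 above the all-probe-set median (adjusted p = 0.000158 by limma). The second probe set showed the same order, with 10.36, 9.75, 9.65 and 10.39 in the controls and 10.39, 10.40, 10.46 and 10.55 in the mutants, and changed by 0.25 (SE 0.14, adjusted p = 0.464, and 0.08 without controls 2 and 3). The 250 bases before the start of Efnb2, chr8:8661243-8661492 (GRCm38.p6, minus strand), held no GATA motif and are shown because this gene and Efna1 were the ones without overlap.
Efnb2: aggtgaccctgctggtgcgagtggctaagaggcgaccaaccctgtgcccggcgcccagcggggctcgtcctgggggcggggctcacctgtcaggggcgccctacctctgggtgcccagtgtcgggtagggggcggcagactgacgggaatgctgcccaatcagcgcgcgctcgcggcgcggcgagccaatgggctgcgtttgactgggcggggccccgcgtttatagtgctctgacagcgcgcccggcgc

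Efnb1 read 10.22, 10.63, 10.53 and 9.73 in the controls and 10.09, 10.09, 9.90 and 9.90 in the mutants. The mutants lay inside the control range. The change was -0.20 (SE 0.15, adjusted p = 0.600) and 0.02 without controls 2 and 3, while the other probe sets changed by -0.13 and -0.58. Efnb3 had a change of 0.08 (SE 0.15, 95% interval -0.23 to 0.40), and of 0.085 without controls 2 and 3.

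Ephb4, the venous receptor of Efnb2, had log2 levels of 8.34, 6.66, 6.17 and 7.86 in the controls and 8.31, 7.25, 8.22 and 7.74 in the mutants. Controls 2 and 3, on which it was not above background, were the lowest arrays, and controls 1 and 4 matched the mutants. The change was 0.20 (SE 0.38, 95% interval -0.60 to 1.01, adjusted p = 0.852) and turned to -0.25 without controls 2 and 3. Ephb3, another receptor of ephrin-B ligands, read 6.83, 5.29, 5.90 and 7.36 in the controls and 4.83, 7.34, 7.85 and 7.80 in the mutants. Mutant 1 held the lowest value of all 8 arrays and the other mutants reached or exceeded the top of the controls. The change was 0.54 (SE 0.69, adjusted p = 0.767) and -0.11 without controls 2 and 3, so neither EphB receptor had a settled direction.

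**Figure D4:**
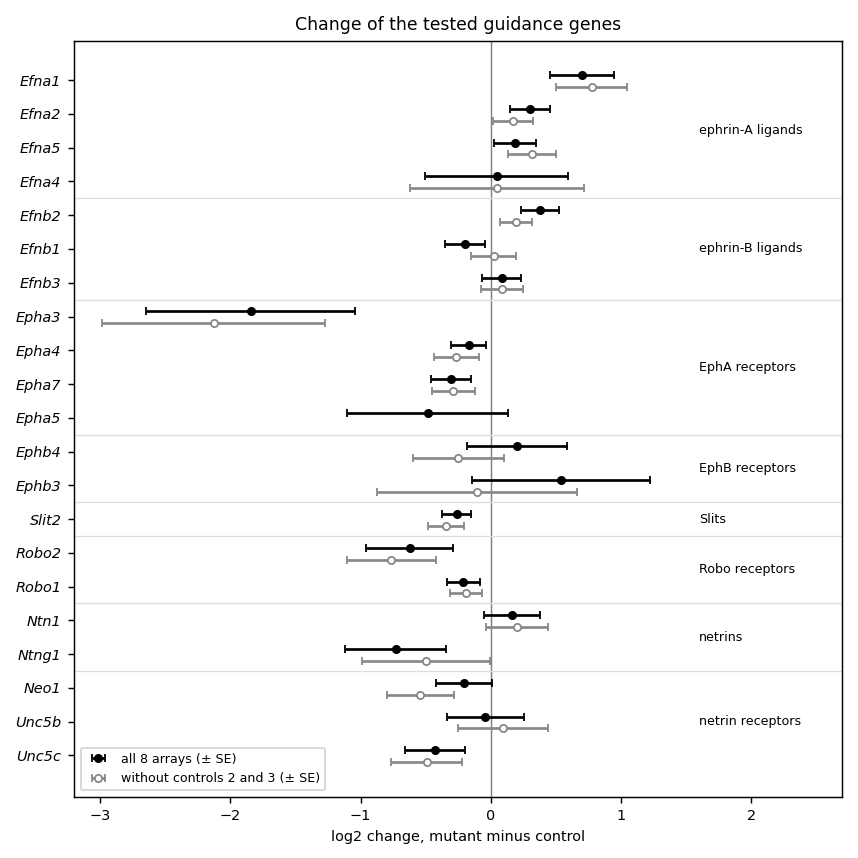
Log2 change (mutant minus control) of the 21 tested guidance genes by family, with SE, from all 8 arrays (filled) and without controls 2 and 3 (open). All filled points of the EphA receptors, Slit2, the Robo receptors and the netrin receptors lie below 0, and those of the ephrin-A ligands above it; Epha5 was not tested without controls 2 and 3, and Efna4, which no control measured above background, is drawn at its fitted value.

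Slit2, a secreted ligand of the Robo receptors, had log2 levels of 11.37, 11.53, 11.39 and 11.76 in the controls and 10.99, 11.37, 11.37 and 11.18 in the mutants. Mutants 2 and 3 met the lower edge of the controls and mutants 1 and 4 lay below it. The change was -0.26 (SE 0.11, 95% interval -0.51 to -0.02, adjusted p = 0.367), with means of 11.51 ± 0.18 and 11.23 ± 0.18 (SD, n = 4 each), and -0.34 without controls 2 and 3. The second probe set changed by -0.19 (SE 0.18). With median-centred arrays Slit2 lay 0.32 above the all-probe-set median. Slit1 was above background on 2 arrays of each group, and Slit3 on 0 control arrays and 1 mutant array.

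Robo1, the receptor that reads Slit2 and Slit3, read 12.62, 12.57, 12.85 and 12.56 in the controls and 12.61, 12.22, 12.60 and 12.17 in the mutants. Mutants 1 and 3 lay among the controls and mutants 2 and 4 below them. The change was -0.21 (SE 0.13, adjusted p = 0.497, and -0.19 without controls 2 and 3), but with median-centred arrays Robo1 lay 0.16 above the all-probe-set median. A dim probe set of Robo1, above background on 1 control and 4 mutant arrays, went the other way, with a fitted change of 1.34 (SE 0.50, adjusted p = 0.316). Robo2 had log2 levels of 8.41, 9.14, 7.22 and 7.98 in the controls and 7.59, 7.26, 8.07 and 7.17 in the mutants. Control 3 stood as low as the lowest mutants. The change was -0.62 (SE 0.34, adjusted p = 0.445) and -0.76 without controls 2 and 3. With median-centred arrays Robo2 was at -1.29 against the all-probe-set median (adjusted p = 0.000562 by limma). RefSeq gives 3 starts for Robo2, and the window before one of them, chr16:75092771-75093020 (GRCm38.p6, minus strand), holds the GATA motif, in capitals, beginning 186 bases before that start.
Robo2: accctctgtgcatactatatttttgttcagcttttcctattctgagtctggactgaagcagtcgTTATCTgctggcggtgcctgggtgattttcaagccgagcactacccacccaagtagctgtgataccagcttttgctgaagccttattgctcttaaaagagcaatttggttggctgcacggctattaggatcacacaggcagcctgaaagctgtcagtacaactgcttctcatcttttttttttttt
Robo3, which acts in commissural axons, was above background on 1 mutant array.

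Among the netrins, Ntn1 read 8.19, 8.54, 8.36 and 8.55 in the controls and 8.72, 8.54, 8.59 and 8.31 in the mutants. The groups lay across each other, with a change of 0.16 (SE 0.22, 95% interval -0.29 to 0.62, adjusted p = 0.780, and 0.20 without controls 2 and 3), and it was -0.32 against the all-probe-set median when arrays were centred on their medians. Ntng1, a membrane-anchored netrin of neurons, had 7.61, 8.63, 7.16 and 6.55 in the controls and 6.32, 6.85, 6.71 and 6.57 in the mutants. Control 4 lay among the mutants and control 2 was far above the rest. The change was -0.73 (SE 0.39, adjusted p = 0.440) and -0.50 without controls 2 and 3, and the second probe set changed by -0.50 (SE 0.50). Ntn4, a netrin of basement membranes, was above background on 0 control and 3 mutant arrays, and Ntn3 and Ntn5 were above it on 1 and 4 of 8 arrays.

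The netrin receptor Unc5c had negative changes at both probe sets. Its log2 values were 10.64, 10.68, 9.84 and 10.26 in the controls and 9.46, 10.41, 10.36 and 9.75 in the mutants, so that mutants 1 and 4 lay below all controls and mutants 2 and 3 among them. The change was -0.43 (SE 0.23, adjusted p = 0.457, and -0.49 without controls 2 and 3), and that of the dimmer probe set -0.88 (SE 0.30, adjusted p = 0.290). Unc5c was singled out after its values were seen.

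Unc5b, the netrin receptor of endothelium, read 7.51, 8.54, 7.55 and 7.49 in the controls and 8.08, 7.23, 7.57 and 7.43 in the mutants. Apart from control 2 and mutant 1 the arrays lay close together. The change was -0.04 (SE 0.30, 95% interval -0.67 to 0.59, adjusted p = 0.968) and 0.10 without controls 2 and 3. It was -1.14 against the all-probe-set median when arrays were centred on their medians. Its window, chr10:60831582-60831831 (GRCm38.p6, minus strand), holds the motif beginning 157 bases before the start.
Unc5b: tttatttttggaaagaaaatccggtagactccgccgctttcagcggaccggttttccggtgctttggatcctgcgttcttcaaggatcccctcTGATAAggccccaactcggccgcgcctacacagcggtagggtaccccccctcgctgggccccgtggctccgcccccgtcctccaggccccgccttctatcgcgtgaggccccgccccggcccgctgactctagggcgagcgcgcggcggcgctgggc
Neo1, a receptor shared by netrins and repulsive guidance molecules, had 10.35, 9.92, 9.76 and 10.42 in the controls and 9.81, 9.30, 10.40 and 10.04 in the mutants. The groups overlapped widely. The change was -0.21 (SE 0.22, adjusted p = 0.706, and -0.54 without controls 2 and 3) at a probe set whose ID suffix marks possible binding to more than 1 transcript. The 4 further probe sets had changes of 0.15, 0.14, 0.49 and -0.41, or 0.20, 0.089, 0.013 and -0.13 without these controls. The probe set at -0.41 also has such a suffix, and those at 0.15, 0.14 and 0.49 do not. Dcc was above background on 0 control arrays and 1 mutant array, and Unc5a and Unc5d on 3 and 1 mutant arrays.

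**Figure D5:**
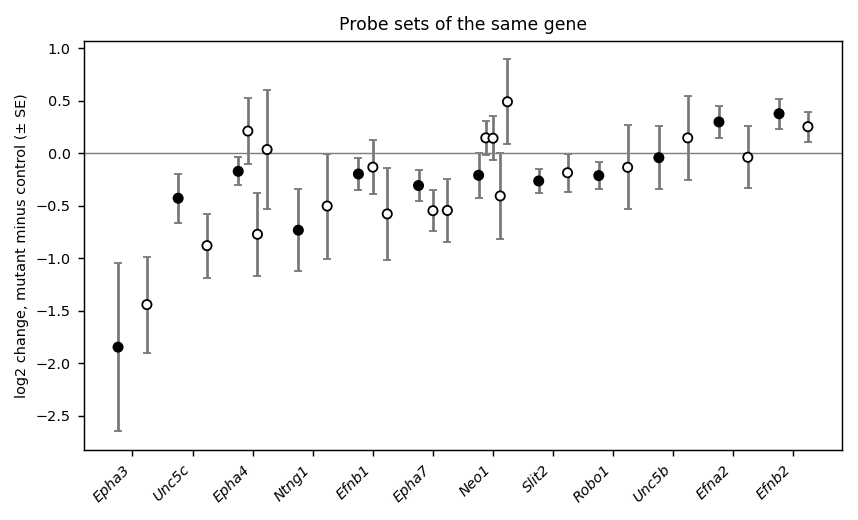
Log2 change (mutant minus control, ± SE) of each tested probe set above background on at least 2 arrays of both groups, for the 12 guidance genes with several such probe sets; filled points are the brightest. All plotted probe sets lie below 0 for 7 genes and above it for Efnb2, and 4 genes have points on both sides.

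Agreement between probe sets above background on at least 2 arrays of each group could be read for 12 genes. All of these were negative for Epha3, Epha7, Unc5c, Ntng1, Efnb1, Slit2 and Robo1 and positive for Efnb2, although the dim Robo1 probe set left out by this limit was positive. They were mixed for Epha4, Neo1, Unc5b and Efna2. Probe sets of a gene share the same 8 RNA pools and are not replicates.

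The genes that pass these signals on were read from 3 lists. Beside the directions in each list, 53.2% of changes over all genes were positive, with a median of 0.02. Directions in the lists were not recomputed on other scalings. Among partners of Eph receptors and ephrins, such as Src-family kinases, Nck adaptors and exchange factors, 0 of 30 tested genes passed in either direction by limma, with 9 positive and 21 negative changes and a median of -0.05. The smallest unadjusted p values were those of the scaffold Grip1 (0.42, SE 0.19, adjusted p = 0.383), Stat3 (-0.57), the ephrin-cleaving protease Adam10 (-0.09) and the exchange factor Kalrn (0.28). Without controls 2 and 3 these changes were 0.24, -0.72, -0.11 and 0.21. Adam10 was lower in every mutant than in any control, at 13.12 ± 0.04 against 13.24 ± 0.03 (SD, n = 4 each). At an unadjusted p under 0.05, 1 was higher and 0 lower, against 7.31% and 5.61% of all genes, and 0 were higher and 1 lower without overlap, against 4.97% and 3.19%.

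Among partners of Slits and Robos, 0 of 27 tested genes passed, with 11 positive and 16 negative changes and a median of -0.08. At an unadjusted p under 0.05, 2 were higher and 2 lower, where 7.31% of all genes were higher and 5.61% lower. They were Arhgap39 (0.26), the heparan sulfate proteoglycan Sdc4 (0.27), Srgap2 (-0.34), a Robo-binding GTPase activator, and Hs2st1 (-0.20), which sulfates the heparan sulfate that Slits need. Without controls 2 and 3 these were 0.29, 0.28, -0.35 and -0.20. Arhgap39 was higher without overlap, while Enah and Sdc3, named after their values were seen, were lower without overlap. Changes of Enah and Sdc3 were -0.12 and -0.50, and -0.12 and -0.43 without controls 2 and 3. Of all genes, 4.97% were higher and 3.19% lower without overlap. Robo4, the endothelial Robo, was above background on 1 control and 4 mutant arrays. Among partners of the netrin receptors, 0 of 16 passed, with 6 positive and 10 negative changes and a median of -0.04. At an unadjusted p under 0.05, 3 were higher and 1 lower, against 7.31% and 5.61% of all genes. They were the ubiquitin ligase Siah2 (0.84, SE 0.32, adjusted p = 0.328), Ablim1 (0.16), Flrt2 (0.27), a ligand of Unc5 receptors, and Trio (-0.35), an exchange factor downstream of Dcc. Without controls 2 and 3 these were 0.59, 0.15, 0.17 and -0.38. Siah2 was the 1 gene of this list higher without overlap, against 4.97% of all genes, and 0 were lower.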

How the data were processed

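The authors deposited 1 linear intensity per probe set for each of 8 arrays of a mouse whole-genome platform. MAS5 is the tool listed in the submitters' processing notes; its version and detection calls are not given in the sources used here. Every array had the same mean intensity of 714.971, and median intensities ran from 71.5 to 268. Columns were matched to samples by name.

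The deposited intensities were transformed to log2(intensity + 16) and quantile normalized. The sizes of changes of dim genes depend on the added 16, in either direction. With 1 added instead, Ntng1 went from -0.73 to -0.82 and Ephb3 from 0.54 to 0.46. Dropping the 64 control features and the dimmest 40% of the rest by mean level left 27022 probe sets. Symbols came from the platform annotation, only from the 34958 probe sets with 1 symbol, and all 39 genes matched RefSeq (GRCm38.p6) by Entrez ID. Sequences came from the RefSeq promoter table.

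Groups were compared with limma 3.58.1 in R 4.3.3, with array weights, trend and robust eBayes, two-sided, and Benjamini-Hochberg adjustment over all tested probe sets. SDs are unweighted. The fit was tested on simulated data. No adjustment over the guidance genes alone was made. Full values are given for genes without overlap, for the 8 smallest p values and for a fixed list of cardiac and vascular members. From each partner list, the 4 smallest p values are named. A size is given only where each group had at least 2 arrays above background. Exceptions are the dim probe sets of Efna1 and Robo1, and Efna4 where it is drawn. Genes, lists and rules were chosen with earlier results of these data known. Same-numbered pools were not shown to be paired: the correlations of their deviations from the group means were -0.115, 0.00584, -0.126 and 0.169. Alternatives covered the arrays kept, weights, pseudocount, filter, scaling and replicate number. Precision is limited by 4 arrays per group.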

Additional observations from a re-analysis of the deposited data

Results flagged for a closer look

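In 32 groups of 4 arrays, those of the 16 genes with full values in control and mutant pools, 2 held an array far from the other 3. Chance alone flags about 1 in 20 such groups. Ephb3 on mutant 1, at 4.83, was separated from the remaining mutants by 0.831 of the group's range, and Unc5b on control 2, at 8.54, was separated from the remaining controls by 0.944 of the range.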

How the results depend on the processing

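Among all probe sets tested, 7 were higher and 5 lower, and of the guidance genes 0 passed. Without overlap 2 guidance genes were higher and 0 lower, against 4.44% and 3.19% of probe sets. The counts over all probe sets were 1 higher and 1 lower without controls 2 and 3, with or without array weights. There Efna1 and Efnb2 were higher and Epha3 lower without overlap, against 8.57% and 7.82% of probe sets. The counts over all probe sets were 6 and 10 with equal weights and 0 and 0 without trend and robust eBayes. They were 22 and 12 with a pseudocount of 64, 14 and 12 with no filter, and 41 and 22 on the authors' scaling. On that scaling 1 guidance gene was higher (Efnb2) and 1 lower (Epha3) without overlap, against 3.56% and 5.47% of probe sets. With median-centred arrays 17322 probe sets were higher and 1832 lower, with 15 and 1 guidance genes past the threshold. Of the guidance genes 0 were higher without overlap, against 4.3% of probe sets. The median change of all probe sets was then 1.13 (-0.10 on the authors' scaling). Relative to this median, 2 of 21 tested guidance genes were higher and 5 lower, against 3256 and 6862 of 27022 probe sets. With the replicate number as a block, 26 and 34 probe sets passed, and 1 guidance gene was lower, Epha3 (-2.31, adjusted p = 0.0377); the samples share only a number, and the block changed no other call among the named genes.

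With each array left out in turn, 3 to 1417 probe sets passed as higher and 2 to 371 as lower. Of the guidance genes 0 to 1 passed the threshold in each direction. Without overlap 2 to 3 were higher and 0 to 3 lower, against 5.44% to 11.5% and 4.23% to 8.92% of probe sets. The highest counts over all probe sets came without control 1 (1417 higher) and without control 4 (371 lower). The change of Ephb4 then ran from -0.19 to 1.32, that of Neo1 from -0.43 to 0.10 and that of Unc5b from -0.29 to 0.071.

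Other changes of direction among the 16 named genes were these. Without controls 2 and 3 and with equal weights, they were Ephb3 (-0.11), Ephb4 (-0.25), Efnb1 (0.022) and Unc5b (0.10); with array weights, Ephb4 (-0.16) and Unc5b (0.080). On the authors' scaling Ephb4 was at -0.16, and with the replicate block Unc5b was at 0.021. With median-centred arrays, relative to the median, they were Slit2 (0.32), Epha4 (0.38), Neo1 (0.38), Ntn1 (-0.32) and Robo1 (0.16). On other probe sets they were Efna2 (-0.038), Epha4 (0.21 and 0.036), Neo1 (0.15, 0.14 and 0.49) and Unc5b (0.15). Of 322 recomputed changes, 286 kept direction and side of the threshold, 27 changed direction and 9 newly passed. The cause was not tested. Background signal limits the dim genes, of which 18 were not tested.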
